A study of Mus musculus with 34 samples.

Results

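The livers of 5 LKO mice, labelled as liver knockouts of Ppara, were set against the livers of 5 LWT mice, labelled as liver wild type, with both groups given fenofibrate. The 10 arrays were taken by their labelled genotype and treatment out of 34 in the series, and all 15765 detected genes with a gene name were read in them. Each array held RNA of 1 male C57Bl/6J mouse of 14 weeks, fed chow, gavaged daily for 10 days and killed at zeitgeber time 14. LKO and LWT mice on fenofibrate received 100 mg per kg per day. The other groups used here were LKO (n = 4) and LWT (n = 4) mice on vehicle, which was gum arabic at 3%, mice labelled Ppara KO without the word liver (KO, n = 5) and wild-type mice (WT, n = 4) on the same fenofibrate dose, and WT mice on vehicle (n = 4). The sources used here do not give which part of the gene was deleted, what drove the deletion in liver, or whether LWT mice carry the unrecombined allele. The submitters' design text counts 36 samples, while the groups it lists come to the 34 arrays.

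PPARA is a nuclear receptor that binds fatty acids and fibrate drugs such as fenofibrate. Paired with RXR on DNA, it switches on genes of fatty acid uptake, of oxidation in peroxisomes and mitochondria, and of ketone body synthesis, and in rodents fibrates enlarge the peroxisome compartment of hepatocytes through it. With the drug given to both genotypes, the comparison asked which liver genes differ with the loss of Ppara while the controls receive an activator of the receptor.

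Each level below is a log2 intensity from which the array's own 75th percentile was subtracted, and a change is LKO minus LWT on that log2 scale with its standard error (SE) from limma. A gene was called when its two-sided p from limma fell under 0.05 after Benjamini-Hochberg adjustment over all 15765 genes. Every adjusted p below is of this kind. Ppara itself was lower in LKO livers. Its brightest probe (chr15:85632110-85632169, mm9) read 6.09, 6.11, 6.20, 5.87 and 5.84 in LKO livers, against 7.0, 7.05, 6.97, 7.11 and 6.94 in LWT livers. All 5 LKO livers lay below all 5 LWT livers, with a change of -0.99 ± 0.14 (adjusted p = 1.27e-06). LKO livers had 50.3%, 42.3% and 47.6% of the LWT intensity at its 3 detected probes. Since the deleted part is not known, these probes may lie outside it.

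Between 50.6% and 58.7% of the probes were well above background on these 10 arrays, and no spot was saturated. Pairs of livers of the same group had correlations of 0.988 to 0.995 over the 15765 genes, each read at its brightest probe. In all 5777 genes were called (36.6%), of which 2882 were higher in LKO livers (18.3%) and 2895 lower (18.4%). Changes of at least 2-fold were called higher for 500 genes (3.17%) and lower for 718 (4.55%), and with normexp background correction for 302 and 478. The median change over all genes was 0.009. Of the 5777 called genes, 99.97% kept their sign within the slide that held 2 LKO and 2 LWT arrays, 99.31% within the slide that held 1 of each, and 99.45% within the slide that held 1 LKO and 2 LWT arrays. These arrays also entered the calls, so the shares are a description only. A fit that kept the slide as a block called 3139 genes higher and 3187 lower. LWT replicate 5 stood apart more often than any other liver, as the lone high or low value of its group for 10 of 172 genes named here, and without it 2706 genes were higher and 2754 lower. Whole liver was measured, so fewer cells of a type and less RNA per cell cannot be told apart.

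**Figure D1:**
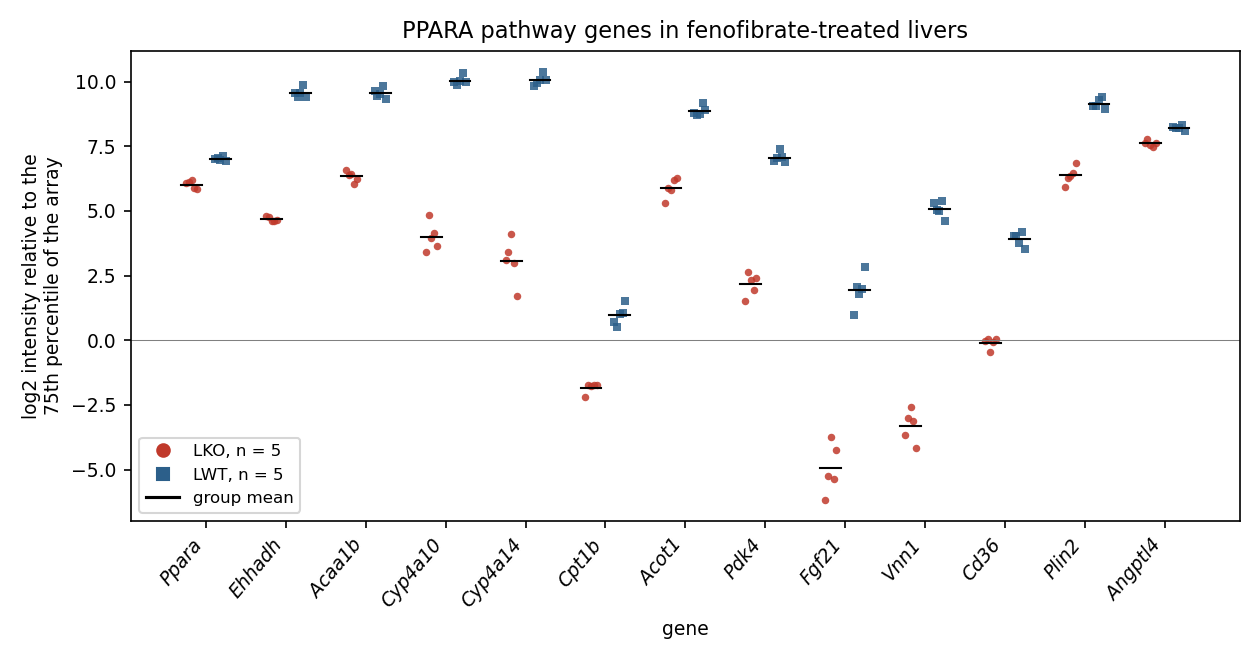
Log2 intensity above the array's 75th percentile (vertical axis) for Ppara and 12 genes of its pathway (horizontal axis) in fenofibrate-treated LKO livers (red circles, n = 5) and LWT livers (blue squares, n = 5), with group means as lines. For all 13 genes every LKO point lies below every LWT point, and the gap is widest for Vnn1, at -8.39 ± 0.36.

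Genes of peroxisomal fatty acid oxidation were lower in LKO livers almost throughout. Of 28 measured members 23 fell and 1 rose, beside the 18.4% and 18.3% of all genes, with a list median of -1.89. Those shares of all genes stand beside every list count below. Ehhadh, the bifunctional enzyme of the peroxisomal spiral, read 4.80, 4.76, 4.60, 4.60 and 4.64 in LKO livers, against 9.57, 9.41, 9.56, 9.89 and 9.39 in LWT livers. Its LKO level was 29.5-fold lower (-4.88 ± 0.27, adjusted p = 1.12e-14), with tight values within each genotype. Acaa1b, a thiolase of the last step, changed by -3.21 ± 0.19 (adjusted p = 7.04e-14). The peroxisomal thioesterases Acot3 and Acot5 changed by -5.46 ± 0.46 and -4.63 ± 0.59, where near-identical Acot copies may share signal at a probe. Abcd2, a transporter of very long chain acyl-CoA, was not well above background in any LKO liver and was at least 3.61-fold lower there. That bound, and each one below, sets the mean of the brighter group against, on each array of the dimmer group, the higher of the gene's own signal and the lowest signal well above background. The single member that rose was Nudt7 (0.51), a peroxisomal hydrolase of coenzyme A, and no member rose without LKO replicate 1 or 2 or without LWT replicate 1, 2, 4 or 5. Genes given with a change and no SE were chosen after their values were seen, among them Phyh, the first enzyme of alpha-oxidation, which changed by -0.07 without a call.

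Of 21 genes of peroxisome assembly and membrane proteins 13 fell and 0 rose, with a median of -0.49. Pex11a, which drives peroxisome division, read 6.18, 6.21, 6.48, 6.39 and 6.73 in LKO livers, against 9.08, 8.96, 8.97, 9.33 and 8.92 in LWT livers. That change of -2.66 ± 0.18 (adjusted p = 9.8e-13) was the largest fall of the list. The membrane protein Pxmp4 (-2.17 ± 0.19) and the import chaperone Pex19 (-1.50 ± 0.10) fell as well. The 8 members without a call included no change below -0.24.

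Mitochondrial fat oxidation fell even more uniformly, with 23 of 24 members lower, 0 higher and a median of -1.65. Acad10 was the member without a call (0.11), and it was higher under quantile normalization and in the authors' value table. Slc25a20, the carnitine-acylcarnitine carrier of the inner membrane, read 1.48, 1.41, 1.53, 1.32 and 1.74 in LKO livers, against 4.79, 4.59, 4.54, 4.79 and 4.57 in LWT livers. The LKO level was 8.93-fold lower (-3.16 ± 0.12, adjusted p = 1.58e-18). Cpt1b, an isoform of the enzyme that commits fatty acids to mitochondria, read -2.21, -1.72, -1.78, -1.75 and -1.75 in LKO livers, against 0.70, 0.51, 1.02, 1.07 and 1.53 in LWT livers, a change of -2.81 ± 0.18. Slc22a5, the carnitine importer of the cell surface, changed by -3.24 ± 0.22. The mitochondrial thioesterase Acot2 read -2.77, -2.10, -2.41, -2.30 and -2.22 in LKO livers, against 4.05, 4.15, 3.99, 4.72 and 4.54 in LWT livers. It was among the 10 largest falls of the whole comparison (-6.65 ± 0.34, adjusted p = 1.48e-15), and its cytosolic relative Acot1 changed by -2.97 ± 0.46.

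All 14 measured genes of microsomal omega-oxidation were called, 11 lower and 3 higher. Cyp4a14, a fatty acid omega-hydroxylase, read 3.10, 3.40, 4.09, 2.97 and 1.72 in LKO livers, against 9.85, 9.93, 10.05, 10.37 and 10.07 in LWT livers. LWT livers lay close together, while LKO livers spread over more than 2 log2 units (-7.00 ± 0.91, adjusted p = 3.94e-07). Cyp4a10 (-6.04 ± 0.60), Cyp4a31 (-5.91 ± 0.59) and Cyp4a32 (-6.89 ± 0.65) fell with it, and these near-identical copies may share signal at their probes. Against them stood the related Cyp4f14 (1.53), which inactivates leukotrienes, with Cyp4v3 (0.38) and Cyp4f13 (0.28), all 3 higher in LKO livers.

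Ketone body synthesis and the hormones and switches of fasting were lower as well. Of 8 genes of ketone body synthesis 5 fell, among them the thiolase gene Acat1 (-1.36 ± 0.10) and the dehydrogenase gene Bdh1 (-0.93 ± 0.18), while the monocarboxylate transporter gene Slc16a6 rose (0.71, without a call when LWT replicate 1 or 2 was left out). Fgf21, a fasting hormone secreted by hepatocytes, read -6.16, -5.25, -3.74, -5.35 and -4.25 in LKO livers, against 0.99, 2.05, 1.80, 1.98 and 2.83 in LWT livers. It was well above background in 2 of 5 LKO livers and in all 5 LWT livers, and the fitted change was -6.88 ± 0.64 (adjusted p = 6.42e-10). Pdk4, a kinase that inhibits pyruvate dehydrogenase, read 1.52, 2.65, 2.33, 1.94 and 2.42 in LKO livers, against 6.92, 7.05, 7.38, 7.08 and 6.89 in LWT livers. Pdk4 was thus 29.6-fold lower in LKO livers, whereas the other kinases Pdk1, Pdk2 and Pdk3 had no call (-0.20, -0.15 and -0.42). The uncoupling protein genes Ucp2 and Ucp3 changed by -1.64 ± 0.22 and -1.72 ± 0.24, and the lipase inhibitor Angptl4 by -0.60 ± 0.09. Of the 14 fuel selection genes 7 fell and 1 rose (2 without LWT replicate 1). The phosphatase Pdp1, which opposes the kinases, rose (0.88), and its relative Pdp2 fell (-1.58).

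Vnn1, a pantetheinase that recycles the vitamin part of coenzyme A, had the largest fall of all genes. It read -3.67, -3.02, -2.60, -3.14 and -4.16 in LKO livers, against 5.31, 5.03, 5.01, 5.38 and 4.61 in LWT livers, a change of -8.39 ± 0.36 (adjusted p = 1.91e-17). The gap between the groups was several times the spread within either. Of 10 genes of coenzyme A turnover 7 fell, among them the synthesis genes Ppcs (-2.13 ± 0.13) and Pank1 (-1.26 ± 0.15), and 2 rose, the pyrophosphatase gene Enpp3 (0.89 ± 0.18) and Pank4 (0.24).

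Genes that bring fat into hepatocytes and store it in droplets were lower in LKO livers. Of 19 genes of uptake, binding and activation 13 fell and 1 rose, the acyl-CoA synthetase gene Acsm1 (0.23), a call lost without any 1 of 8 of the 10 arrays and kept without LWT replicate 1 or 3, and lost under the replicate block too (adjusted p = 0.0576), and of 18 droplet and lipolysis genes 14 fell and 1 rose, the coat gene Plin3 (0.74). The median changes were -0.98 and -1.52. Cd36, a fatty acid translocase, read -0.04, 0.04, -0.45, -0.06 and 0.06 in LKO livers, against 4.03, 4.02, 3.76, 4.18 and 3.54 in LWT livers. It was 15.9-fold lower (-3.99 ± 0.16, adjusted p = 1.07e-17). Plin2, the main coat protein of hepatocyte droplets, read 5.94, 6.27, 6.35, 6.46 and 6.84 in LKO livers, against 9.05, 9.05, 9.30, 9.40 and 8.93 in LWT livers, a change of -2.77 ± 0.24. Cidec, which fuses droplets, read -0.27, -0.94, -0.31, 0.32 and -0.33 in LKO livers, against 4.92, 5.51, 6.24, 6.04 and 6.02 in LWT livers. Cidec fell by more than Plin2 in these fitted values (-6.05 ± 0.55), with no overlap of the groups for either. G0s2, an inhibitor of triglyceride lipase, changed by -3.13 ± 0.27, and the fatty acid transport gene Slc27a1 by -2.19 ± 0.17. Fabp4, a fatty acid binding protein best known from adipocytes and macrophages, read 1.49, 1.28, 1.66, 1.70 and 1.64 in LKO livers, against 2.95, 2.82, 6.02, 3.33 and 3.61 in LWT livers, where replicate 3 stood far above the other 4. The change was -2.19 ± 0.38 (adjusted p = 3.86e-05), and -1.62 without that liver.

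Mogat1, a monoacylglycerol acyltransferase, read -3.58, -3.62, -3.78, -3.40 and -3.45 in LKO livers, against 2.42, 2.13, 2.30, 2.34 and 1.01 in LWT livers. It was 48.8-fold lower (-5.61 ± 0.23, adjusted p = 1.17e-17). Of 14 genes of triglyceride synthesis 9 fell, with the first-step enzyme Gpam at -1.84 ± 0.18, and 3 rose. The 3 were Lpin1 (1.77 ± 0.20, adjusted p = 3.02e-08), a phosphatidate phosphatase that also serves as a coactivator, Mogat2 (1.42 ± 0.43) and Dgat2 (0.32), whose call was lost when only these 10 arrays were fitted (adjusted p = 0.0768) and without LKO replicate 5 or LWT replicate 3 or 5 (0.0516 to 0.0811). Lpin1 read 6.23, 6.17, 6.24, 6.08 and 6.23 in LKO livers, against 4.92, 4.09, 4.33, 4.37 and 4.39 in LWT livers, so Mogat1 and Lpin1 moved in opposite directions, with no overlap of the groups for either. Glycerol use gave 4 lower of 8, with the channel Aqp3 at least 12.8-fold lower and the mitochondrial dehydrogenase Gpd2 at -1.82 ± 0.11, and 1 higher, the triose kinase gene Tkfc (0.83).

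The sequences just before the starts of 4 of these genes are shown because the genes fell together and their windows hold a match to the motif that PPARA and RXR are known to bind, a direct repeat with 1 base between the repeats. The motif searched was AGGTCA, any base, then AGGTCA again, on both strands, with at most 2 of its 12 fixed letters changed, in the 250 bases before each gene start in RefSeq sequence on GRCm38.p6, and capitals mark the match. Cd36 lies on the minus strand with its window at chr5:17835897-17836146, Plin2 on the minus strand at chr4:86670060-86670309, Mogat1 on the plus strand at chr1:78510810-78511059 and Ucp3 on the plus strand at chr7:100472741-100472990.
Cd36: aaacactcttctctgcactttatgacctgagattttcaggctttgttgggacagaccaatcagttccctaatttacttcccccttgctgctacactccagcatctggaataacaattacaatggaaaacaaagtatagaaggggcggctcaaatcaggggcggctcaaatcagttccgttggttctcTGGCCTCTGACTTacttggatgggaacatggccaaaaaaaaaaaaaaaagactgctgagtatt
Plin2: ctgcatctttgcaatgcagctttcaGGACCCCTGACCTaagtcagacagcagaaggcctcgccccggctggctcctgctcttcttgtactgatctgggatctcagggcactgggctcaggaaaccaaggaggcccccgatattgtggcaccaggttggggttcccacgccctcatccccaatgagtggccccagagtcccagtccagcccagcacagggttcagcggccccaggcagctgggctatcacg
Mogat1: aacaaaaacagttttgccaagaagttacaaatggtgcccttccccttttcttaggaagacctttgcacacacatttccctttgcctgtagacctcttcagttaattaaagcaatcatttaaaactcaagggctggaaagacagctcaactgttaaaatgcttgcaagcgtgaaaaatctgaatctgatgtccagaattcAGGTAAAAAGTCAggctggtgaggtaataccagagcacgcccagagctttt
Ucp3: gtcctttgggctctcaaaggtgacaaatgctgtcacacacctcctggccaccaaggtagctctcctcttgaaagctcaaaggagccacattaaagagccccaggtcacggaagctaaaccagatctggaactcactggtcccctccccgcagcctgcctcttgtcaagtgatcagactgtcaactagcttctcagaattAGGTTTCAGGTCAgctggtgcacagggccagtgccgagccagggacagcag
Such a match was present for 23 of 552 genes that were at least 2-fold lower and had a window (4.17%), for 14 of 373 at least 2-fold higher (3.75%) and for 402 of all 12016 genes with a window (3.35%). The share among the strongly lower genes was thus near that of all genes. A match of letters is a description and not a binding site, and of 116 genes named by the rule that have a window 8 hold one. Of these 8, Kmo and the 4 shown fell and 3 rose, namely Slco1a1 (1.45 ± 0.16), Serpina12 and Cxcl10 (0.95 ± 0.25). Slco1a1 has the closest match of the 8, with 1 letter changed against 2 in each of the others.

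Fatty acid synthesis gave more falls than rises. Of 18 genes 6 fell and 3 rose, beside 18.4% lower and 18.3% higher among all genes, with a median of -0.48. The count of rises was thus near the background. Srebf1, which encodes the lipogenic transcription factor SREBP1, read -0.43, -0.57, -0.82, -1.43 and -1.11 in LKO livers, against 1.41, 0.94, 0.84, 0.87 and 1.02 in LWT livers, a change of -1.89 ± 0.28. The desaturase Fads2 (-1.69 ± 0.13), the elongase Elovl5 (-1.80 ± 0.17) and the malic enzyme Me1 (-1.22) fell as well. Thrsp, a lipogenic regulator, rose (1.33 ± 0.31, adjusted p = 0.00116), and so did Mlxipl (0.46), which encodes the sugar-sensing factor ChREBP, and Fads3 (0.58). Fasn and Scd1, the palmitate synthase and the main desaturase of liver, had no call (-0.48 and -0.49).

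Proteins that handle fat in plasma gave 7 lower and 4 higher of 24, close to the background on the higher side. Lpl, the lipoprotein lipase, read 0.20, -0.42, -0.40, -0.26 and -0.97 in LKO livers, against 3.06, 2.73, 4.36, 3.11 and 2.56 in LWT livers, a change of -3.53 ± 0.33 (adjusted p = 5.98e-10). The VLDL receptor gene Vldlr (-3.46 ± 0.39) and the phospholipid transfer protein Pltp (-2.98 ± 0.23) also fell. Apoa4, an apolipoprotein of triglyceride-rich particles, read 5.07, 5.78, 6.11, 6.22 and 6.47 in LKO livers, against 1.82, 2.63, 4.47, 3.33 and 5.38 in LWT livers. Its groups overlapped, since LWT replicate 5 exceeded LKO replicate 1, although the mean was higher in LKO livers (2.41 ± 0.46, adjusted p = 0.000125). Of 25 genes of cholesterol synthesis 8 fell and 4 rose. Hmgcs1 and Hsd17b7 fell (-1.64 ± 0.32 and -1.88 ± 0.19), whereas the epoxidase gene Sqle rose (0.90). The count of lower members was 5 without LKO replicate 1 or without LKO replicate 4.

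Bile acid genes showed little direction as a list, with 6 higher and 8 lower of 23. The uptake carrier Slco1a4 read 3.78, 4.20, 3.86, 4.00 and 4.16 in LKO livers, against 0.52, 0.84, 0.43, 0.55 and 0.84 in LWT livers. That was 10.3-fold higher in LKO livers (3.36 ± 0.21, adjusted p = 1.87e-13), and its family member Slco1a1 rose too (1.45 ± 0.16). The efflux pump Abcc4 fell (-1.38 ± 0.14), as did Cyp8b1 (-1.08), which sets the share of cholic acid, and Abcb4 (-1.22), the phospholipid flippase of bile. Cyp39a1 rose (1.42 ± 0.34), while Cyp7a1, the rate-limiting enzyme of bile acid synthesis, had no call (1.22).

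**Figure D2:**
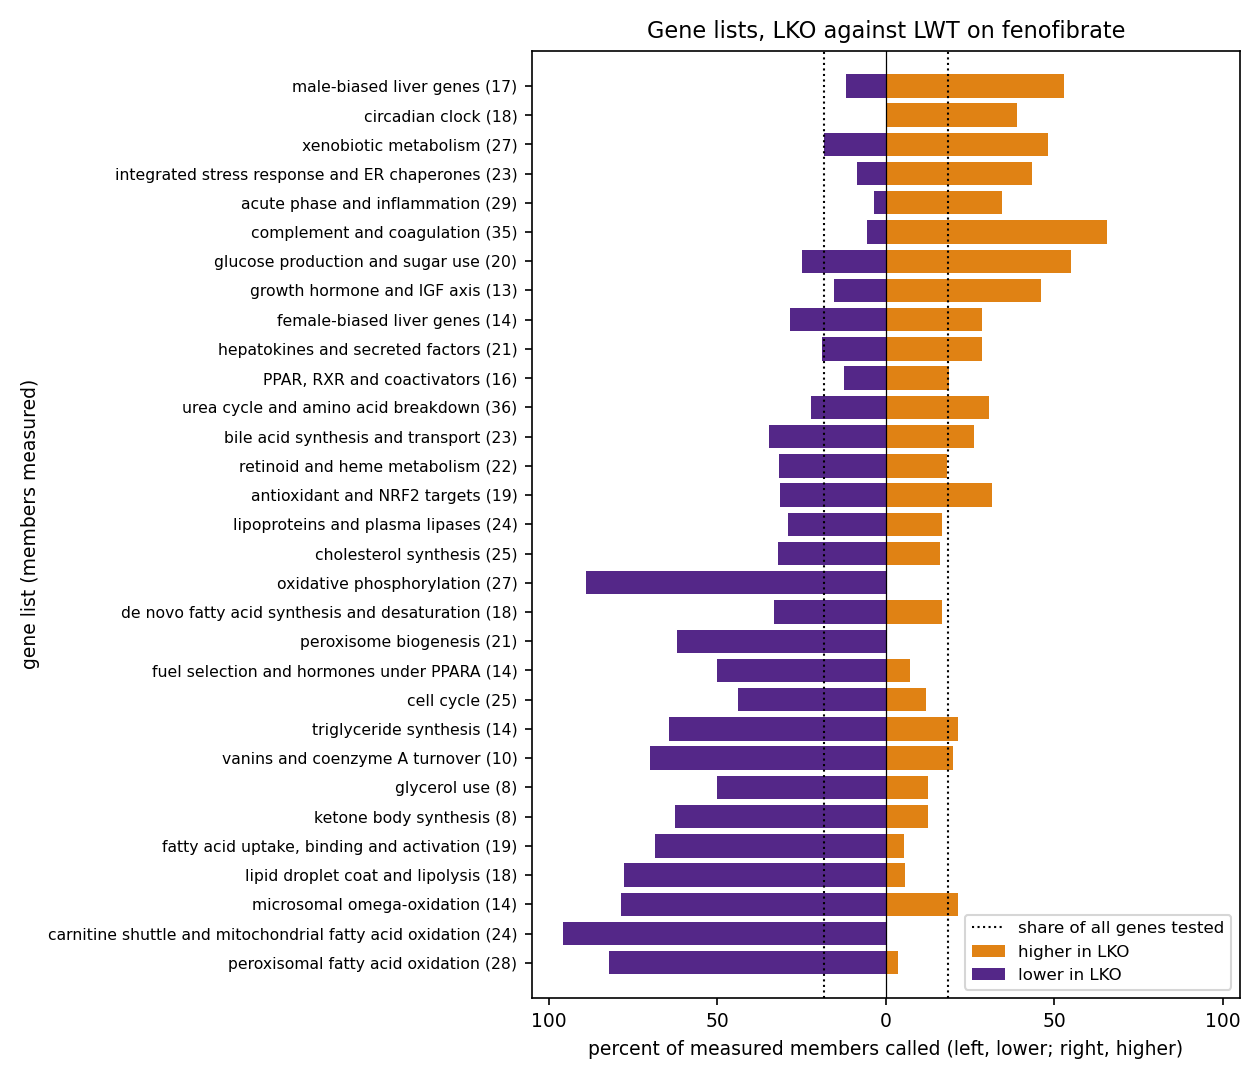
Percent of the measured members of each of 31 gene lists (vertical axis, members measured in brackets) that were called lower (purple, to the left) or higher (orange, to the right) in LKO than in LWT livers on fenofibrate, ordered by the median change. Dotted lines mark the 18.4% lower and 18.3% higher among all 15765 genes; mitochondrial fatty acid oxidation and oxidative phosphorylation extend furthest to the left and complement and coagulation furthest to the right.

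The respiratory chain fell by small steps in nearly every member. Of 27 measured oxidative phosphorylation genes 24 were lower and 0 higher, all 27 changes were below 0, and the median was -0.36. Cycs, the electron carrier cytochrome c, read 6.38, 6.34, 6.43, 6.41 and 6.44 in LKO livers, against 7.30, 7.07, 7.18, 7.29 and 7.22 in LWT livers, a change of -0.81 ± 0.10. The complex III genes Uqcrc2 and Uqcrfs1 changed by -0.45 ± 0.06 and -0.44 ± 0.06 (adjusted p = 1.3e-06 and 3.06e-06). Cell cycle genes gave 11 lower and 3 higher of 25. Cyclin D1 (Ccnd1) fell (-1.36 ± 0.31), while cyclin E1 (Ccne1, 1.25 ± 0.25), the nucleotide reductase subunit Rrm2 (1.55 ± 0.17) and the inhibitor Cdkn1b (0.73) were the 3 that rose. In retinoid and heme metabolism 7 of 22 fell, among them the retinol dehydrogenase Rdh16 (-2.23 ± 0.22) and the heme enzyme Cpox (-1.59 ± 0.14). Another 4 rose, near the 18.3% higher among all genes, with Rdh5 at 1.14 ± 0.14.

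Lists with more rises than falls held secreted plasma proteins, sugar handling and drug metabolism. Of 35 complement and coagulation genes 23 rose and 2 fell, with a median of 0.31. The terminal complement component C6 read 5.82, 5.44, 5.65, 5.68 and 5.83 in LKO livers, against 4.31, 4.27, 4.80, 4.40 and 4.14 in LWT livers, a change of 1.30 ± 0.16 (adjusted p = 1.3e-07), and C8a rose by a similar step (1.06 ± 0.12). Cfd, the adipsin gene, fell (-6.39 ± 0.84, well above background in 1 of 5 LKO livers). Acute phase genes gave 10 higher and 1 lower of 29. Saa4 (0.85 ± 0.19), the C-reactive protein gene Crp (0.85) and the chemokine Cxcl10 (0.95 ± 0.25) rose, and the interleukin 1 antagonist Il1rn was the member that fell. Il1rn read -3.87, -3.56, -3.88, -3.16 and -3.90 in LKO livers, against -0.28, -0.21, -0.24, -0.31 and 0.13 in LWT livers (-3.49 ± 0.25, adjusted p = 3.05e-12), with the groups far apart and 3 of 5 LKO livers well above background.

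Of 20 genes of glucose production and sugar use 11 rose and 5 fell. Ppp1r3c, which targets a phosphatase to glycogen, read 3.79, 3.68, 3.74, 4.67 and 4.37 in LKO livers, against 0.87, 0.37, -0.62, 2.09 and 0.55 in LWT livers, a change of 3.40 ± 0.52 (adjusted p = 5.92e-06). The groups did not overlap, and the pyruvate kinase gene Pklr rose too (1.73 ± 0.31). Fbp2 (-2.86 ± 0.42, well above background in 1 of 5 LKO livers) and the glycogen synthase gene Gys2 (-0.66) fell, while the gluconeogenic genes Fbp1 and G6pc had no call (0.09 and 0.02).

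In xenobiotic metabolism 13 of 27 rose and 5 fell, with a median of 0.40. The 8 measured Cyp2c genes all rose, from 1.05 for Cyp2c29 through Cyp2c39 (1.16), Cyp2c38 (1.30), Cyp2c70 (1.38), Cyp2c50 (1.39), Cyp2c54 (1.42 ± 0.25) and Cyp2c37 (1.49 ± 0.27) to 2.08 ± 0.29 for Cyp2c55 at their brightest probes, and these related cytochromes may share signal at a probe. As the mean of its probes Cyp2c38 had no call (-0.20, adjusted p = 0.647). The nuclear receptor genes Nr1i2 (PXR) and Nr1i3 (CAR), which control such enzymes, fell (-0.60 and -0.41), the call of Nr1i3 being lost without LWT replicate 1 (adjusted p = 0.0662). Of 23 genes of the integrated stress response and the endoplasmic reticulum 10 rose and 2 fell, the serine synthesis gene Psat1 (-1.73 ± 0.37) and Shmt2 (-0.38). Xbp1 (0.75 ± 0.16), a factor of the unfolded protein response, and the chaperone gene Hspa5 (0.48) were among those that rose. Antioxidant genes were even, with 6 higher and 6 lower of 19. Gstp1 rose (1.14 ± 0.14) and Srxn1 fell (-0.95 ± 0.20). The metallothionein gene Mt2 read 9.13, 9.55, 8.83, 9.59 and 9.75 in LKO livers, against 7.27, 6.23, 8.71, 7.78 and 8.97 in LWT livers, so that LWT replicate 5 lay above the lowest LKO liver (1.58 ± 0.44, adjusted p = 0.00533).

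Amino acid genes moved by small amounts, with 11 higher and 8 lower of 36 and a median of 0.08, and with 7 higher without LKO replicate 5. Prodh, which opens proline breakdown, read 7.58, 7.54, 7.54, 7.58 and 7.61 in LKO livers, against 6.66, 6.58, 6.57, 6.57 and 5.89 in LWT livers (1.12 ± 0.10, adjusted p = 5.43e-10). Got1 rose (0.89 ± 0.16) and the kynurenine enzyme Kmo fell (-0.55 ± 0.11). Of 18 clock genes 7 rose and 0 fell in livers taken at a single hour of the day. Usp2, a clock output gene, read 4.21, 4.51, 4.52, 4.34 and 4.17 in LKO livers, against 3.22, 2.84, 2.85, 3.31 and 3.49 in LWT livers (1.21 ± 0.14, adjusted p = 6.22e-08). Nfil3 (1.21 ± 0.19), Bhlhe40 (1.06 ± 0.16) and Per1 (0.64 ± 0.10), which repress clock transcription, rose too, while Arntl (BMAL1) and Clock, which drive it, had no call (0.73 and -0.29). In the growth hormone and IGF axis 6 of 13 rose and 2 fell. The STAT5 target Cish rose (2.68 ± 0.56), the binding protein gene Igfbp2 fell (-1.97 ± 0.18), as did Stat5a (-0.58), and Igf1 had no call (0.08). As the mean of its probes Igf1 was called higher (0.24, adjusted p = 0.0493). Male-biased liver genes gave 9 higher and 2 lower of 17. Hsd3b5, a male-specific steroid reductase, read 5.87, 5.32, 5.49, 4.95 and 4.81 in LKO livers, against 3.44, 3.31, 3.32, 2.58 and 0.24 in LWT livers, where replicate 5 stood below the other 4 (2.71 ± 0.50, adjusted p = 8.5e-05). The 2 that fell were Cyp4a12a (-1.56 ± 0.25) and Cyp4a12b (-1.52 ± 0.24), omega-hydroxylases of the Cyp4a family. Female-biased genes were even, with 4 higher (2 without LWT replicate 5) and 4 lower of 14, and the lists of hepatokines (6 and 4 of 21) and of PPAR, RXR and coactivators (3 and 2 of 16, or 6 and 1 with quantile normalization) were near the background. Inhba (1.76 ± 0.31) was among the hepatokines that rose, and Pparg (0.66 ± 0.18) among the receptors.

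Several of the largest changes lay outside the lists. Rad51b, a recombination repair gene, had the second largest fall of all genes by fitted value. It read -3.97, -4.05, -3.96, -4.89 and -5.08 in LKO livers, against 3.41, 3.53, 3.84, 4.07 and 3.76 in LWT livers, a change of -8.11 ± 0.47 (adjusted p = 3.07e-14), and it was well above background in 2 of 5 LKO livers. Krt23, a keratin, read -1.20, -1.0, -0.86, -1.16 and -1.76 in LKO livers, against 6.25, 6.01, 5.69, 5.91 and 5.77 in LWT livers. The keratin was thus 139-fold lower in LKO livers. The non-coding gene Arhgap20os was at least 51.1-fold lower, the sulfotransferase gene Gal3st1 at least 49.4-fold and Rufy4 at least 31.1-fold, each being below background in every LKO liver.

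Among the largest rises were 3 genes of the serpin A family of protease inhibitors and their relatives. Serpina4-ps1 read 7.98, 5.82, 7.17, 7.46 and 7.16 in LKO livers, against 3.42, 2.97, 3.90, 2.63 and 3.14 in LWT livers, a change of 3.91 ± 0.65 (adjusted p = 2.1e-05). Serpina5, well above background in 1 of 5 LWT livers, rose by 4.05 ± 0.44, and Serpina12, known as the adipokine vaspin, was at least 6.65-fold higher in LKO livers, since no LWT liver was well above background. Serpine2, a protease inhibitor of another serpin class, read 0.36, 0.60, 0.75, 1.32 and 1.30 in LKO livers, against -2.62, -3.51, -2.28, -1.79 and -3.89 in LWT livers, a change of 3.68 ± 0.34. Moxd1, a monooxygenase-like gene, had the largest fitted rise, with 2 of 5 LWT livers well above background. It read 2.12, 0.69, 1.45, 2.30 and 4.90 in LKO livers, against -5.12, -4.69, -0.62, -3.55 and -4.30 in LWT livers (5.95 ± 0.97, adjusted p = 1.52e-05). The Moxd1 groups did not overlap, but LKO replicate 5 and LWT replicate 3 each stood above their group. Tmeff2, a transmembrane protein gene, was at least 8.81-fold higher and Espn, an actin bundling gene, at least 7.66-fold higher. The adhesion receptor Adgrf1 (3.58 ± 0.34), Lrtm1 (4.90 ± 0.39) and the interleukin 22 receptor subunit Il22ra1 (3.54 ± 0.46, well above background in 3 of 5 LWT livers) complete the 10 largest rises among genes with a proper symbol.

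A further question was whether the genes that differ between LKO and LWT on the drug are those the drug moves. That was read from other mice, WT on fenofibrate (n = 4) against WT on vehicle (n = 4), whose arrays take no part in the LKO and LWT groups. Both comparisons used the same variance estimate for a gene, so their calls were not independent. The same holds for the comparisons on vehicle and with the whole-body knockout below. In WT mice 1596 genes were called raised (10.1%) and 1787 lowered (11.3%). Of the 1596 raised genes 1387 were lower in LKO than in LWT livers (86.9%), 2 were higher, and the median was -0.70. Of the 1787 lowered genes 1498 were higher in LKO livers (83.8%), 0 were lower, and the median was 0.51. Among the 12382 genes without a call in WT, 12.2% were lower and 11.2% higher in LKO livers. Read the other way, the genes raised in WT made up 47.9% of all 2895 lower genes, and those lowered in WT 52.0% of all 2882 higher genes. About as many of the called genes thus had no call in WT as had one. With 4 WT mice per group, a missing call does not show that a gene did not respond to the drug in WT.

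**Figure D3:**
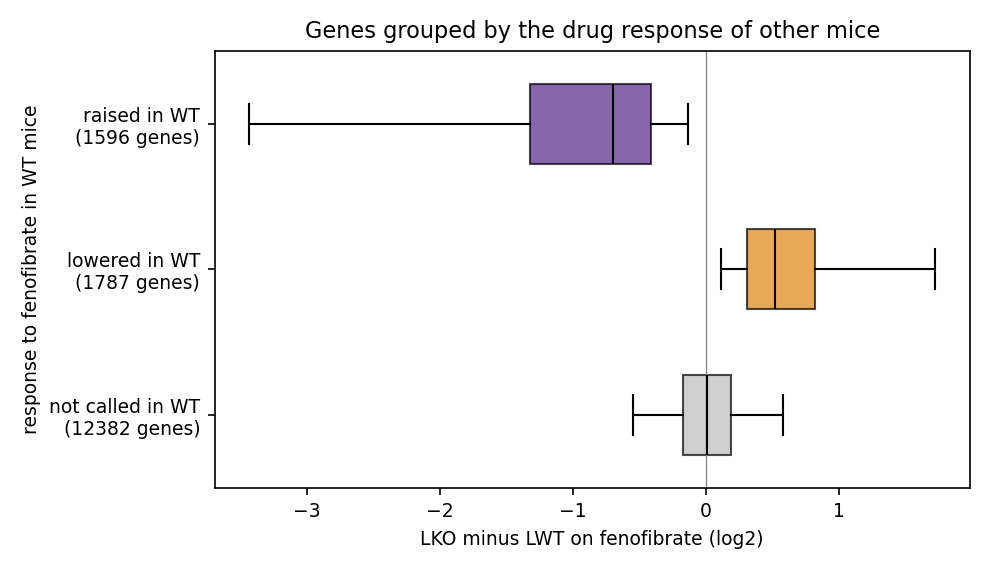
Change between LKO and LWT livers on fenofibrate (horizontal axis, log2) for genes raised, lowered or not called by fenofibrate in WT mice (vertical axis, with gene numbers); boxes span the quartiles, the line is the median and whiskers reach the 5th and 95th percentiles. The medians are -0.70 for raised, 0.51 for lowered and 0.00 for uncalled genes.

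The same genotypes were next compared on vehicle, in 8 other mice. There 292 genes were higher (1.85%) and 678 lower (4.3%), so fewer genes were called than on the drug, with 4 mice per group in place of 5. The count of higher genes on vehicle was 167 without LWT vehicle replicate 3 or 4 and 190 without LKO vehicle replicate 4. Of the 292, 241 were also higher on fenofibrate, which is 82.5% of the vehicle list and 8.36% of the fenofibrate list. Of the 678, 643 were also lower on fenofibrate, which is 94.8% and 22.2% of the 2 lists. Whether the genotype change itself differed between drug and vehicle was tested as a difference of the 2 changes, fenofibrate minus vehicle, and 469 genes were called with a higher value (2.97%) and 596 with a lower one (3.78%). Of the 5777 genes called on fenofibrate, 1037 also had a called difference, 580 of them lower and 457 higher in LKO livers on the drug. Of the 4891 genes called on fenofibrate and not on vehicle, 820 had a called difference, so for most of them the 2 treatments were not shown to differ.

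Cd36 and 5 other genes of the 15 named for the pathway had a called difference. Cd36 read -0.27, 0.25, 0.10 and -0.18 in LKO livers on vehicle, against -0.16, 0.03, 0.43 and -0.16 in LWT livers on vehicle, with no call between them (-0.06 ± 0.18, adjusted p = 0.914). The difference between the treatments was -3.93 ± 0.25 (adjusted p = 7.07e-12) for Cd36, so its genotype change was seen on the drug and not on vehicle. Pdk4 (-3.38 ± 0.67), Ehhadh (-2.61 ± 0.41), Vnn1 (-2.21 ± 0.53), Cpt1b (-1.69 ± 0.27) and Plin2 (-1.43 ± 0.35) also had a called difference, each with a larger fall on fenofibrate. Mogat1 and Krt23 did so too, with differences of -4.76 ± 0.35 and -3.67 ± 0.44, as read from the list of called genes after their values were seen. Of the genes named for the largest differences, Adra2a (-6.19 ± 0.77), an adrenergic receptor, Ctse (-6.01 ± 0.31), a cathepsin, and Smcp (-5.49 ± 0.73) were not well above background in any LKO liver on fenofibrate or in any vehicle liver, with group means between -6.53 and -5.02, so these differences are fitted values and not measured sizes. They were well above background in LWT livers on fenofibrate, where the means were -0.18 for Adra2a, -0.58 for Ctse and 0.97 for Smcp. The fitted difference of Rad51b was -6.65 ± 0.71. Gdpd3 had the largest difference (-8.06 ± 1.20), and its levels did not follow the groups. It read -3.67, -3.60, -4.77, -3.48 and 1.44 in LKO livers, against 0.08, 1.02, 1.46, 2.11 and -3.44 in LWT livers, so that replicate 5 of each genotype stood with the other one. Without LKO replicate 5 the difference was -9.13, and without LWT replicate 5 it was -8.99.

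For the other 9 pathway genes no difference was called, although Acaa1b and Acot1 had a call in at least 1 alternative. Cyp4a14 read -1.89, -0.47, -0.49 and 0.76 in LKO livers on vehicle, against 7.33, 7.82, 8.31 and 9.20 in LWT livers on vehicle, a change of -8.69 ± 1.02, and its difference between treatments was not called (1.69 ± 1.37, adjusted p = 0.563). The corresponding change of Fgf21 on vehicle was -7.06 ± 0.71, with a difference of 0.18 ± 0.96 (adjusted p = 0.955). Fgf21 was well above background in 1 of 4 LKO livers on vehicle and in 2 of 5 on fenofibrate, so both changes and their difference are fitted values and not measured sizes. Ppara itself changed by -0.91 ± 0.16 on vehicle and had no called difference (-0.08 ± 0.21, adjusted p = 0.897). The standard errors of these differences ran up to 1.37 for Cyp4a14, so that a difference of about that size could not be detected.

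For the genes that were higher in LKO livers on the drug, the vehicle groups were set beside the same levels. Serpina4-ps1 read 7.63, 5.28, 6.68 and 6.03 in LKO livers on vehicle, against 6.84, 5.32, 6.91 and 6.95 in LWT livers on vehicle. These vehicle groups overlapped, and both lay above all 5 LWT livers on fenofibrate, with a difference between treatments of 4.00 ± 0.98 (adjusted p = 0.00977). Serpina12 (3.97 ± 0.68, with no LWT liver on fenofibrate well above background), Adgrf1 (3.02 ± 0.50), Ppp1r3c (2.87 ± 0.78) and Serpina5 (2.45 ± 0.65) were the other 4 largest positive differences. The Ppp1r3c call was lost without LKO vehicle replicate 1 (adjusted p = 0.0706) or without LWT vehicle replicate 3 (0.0557) or 2 (0.0523), and that of Serpina5 without LWT vehicle replicate 1 (0.0529). With normexp background correction the differences of Serpina12 and Serpina5 were only 0.84 and 0.64 and had no call (adjusted p = 0.0636 and 0.268). Serpina5 had no called difference in the authors' value table either (1.07, adjusted p = 0.0751). Slco1a4 and Lpin1, taken up after their values were seen, had differences of 2.24 ± 0.32 and 1.69 ± 0.30. Lpin1 read 6.05, 5.71, 6.14 and 6.12 in LKO livers on vehicle, against 6.08, 5.95, 6.11 and 5.56 in LWT livers on vehicle, all above every LWT liver on fenofibrate.

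**Figure D4:**
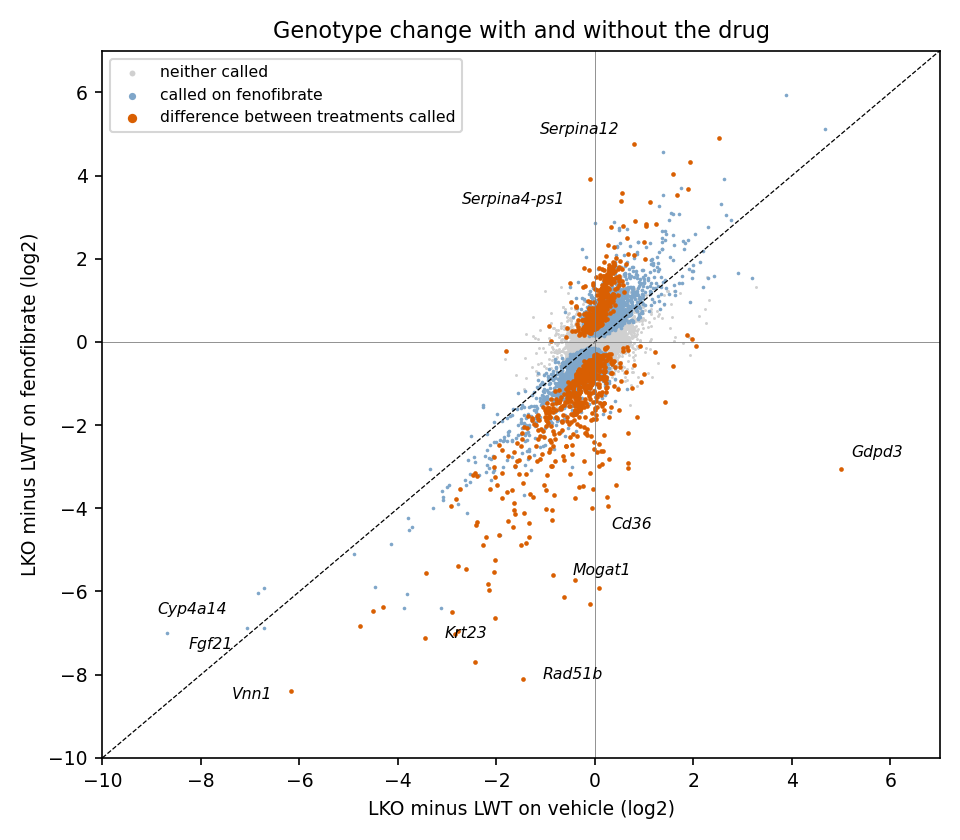
LKO minus LWT change on fenofibrate (vertical axis, log2) against the same change on vehicle (horizontal axis, log2) for all 15765 genes, which come from different mice; the dashed line marks equal changes. Blue points were called on fenofibrate and grey ones in neither way; genes with a called difference between treatments (orange) include Cd36, Mogat1, Krt23 and Rad51b well below the line, while Fgf21 lies near it and Cyp4a14 above it.

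**Figure D5:**
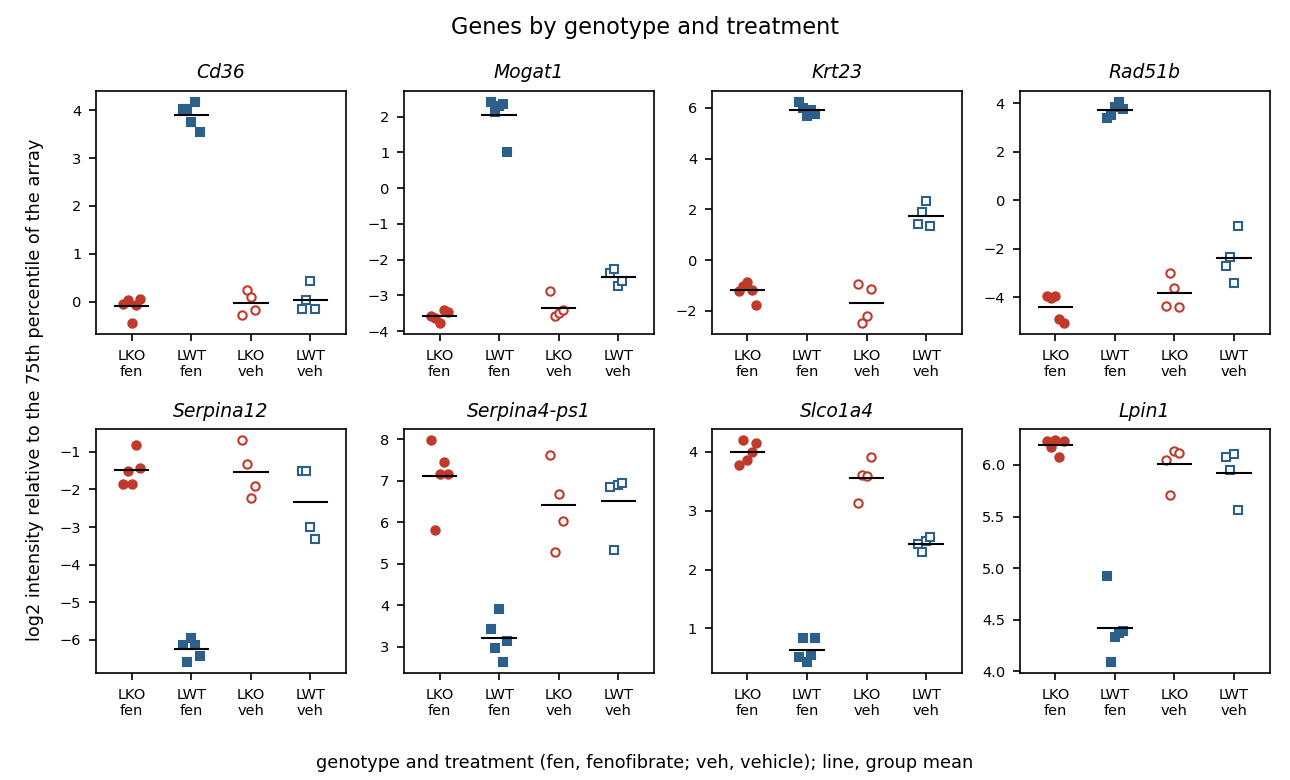
Log2 intensity above the array's 75th percentile (vertical axes) of 8 genes in LKO and LWT livers on fenofibrate (fen, filled, n = 5 each) and on vehicle (veh, open, n = 4 each), with 1 point per mouse and group means as lines. The genes were chosen among those with a called difference between treatments, so the pattern follows in part from the choice. LWT livers on fenofibrate stand apart from the other 3 groups, above them for Cd36, Mogat1, Krt23 and Rad51b and below them for Serpina12, Serpina4-ps1, Slco1a4 and Lpin1. Ppp1r3c, also with a called difference, is not shown. Its LWT groups overlapped, with fenofibrate replicate 4 at 2.09 and vehicle replicate 1 at 1.06.

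The whole-body knockout offers the same contrast in other mice and another line, KO (n = 5) against WT (n = 4), both on fenofibrate. In it 3345 genes were higher (21.2%) and 3478 lower (22.1%). Of the genes lower in LKO than LWT livers, 1970 were also lower in KO than WT livers, 68.0% of the LKO list and 56.6% of the KO list. Of the higher genes 1701 were shared, 59.0% and 50.9% of the 2 lists, and 115 and 54 genes were called in opposite directions. Ehhadh changed by -4.88 ± 0.27 in LKO and -5.06 ± 0.29 in KO livers, Cd36 by -3.99 ± 0.16 and -3.67 ± 0.17, Cyp4a14 by -7.00 ± 0.91 and -9.89 ± 0.97, and Pdk4 by -4.89 ± 0.45 and -4.83 ± 0.47. None of the 15 pathway genes had a called difference between the 2 knockouts, LKO minus LWT less KO minus WT, although Vnn1 and Cyp4a14 had a call in at least 1 alternative. Over all genes 984 had a higher (6.24%) and 945 a lower difference (5.99%). Dct, a melanin enzyme, and Trim12a had the 2 largest positive differences, and both were well above background in all LKO, LWT and WT livers on fenofibrate and in no KO liver. Serpina12 was also among the 5 largest. It was well above background in 5 of 5 LKO and 0 of 5 LWT livers, against 0 of 5 KO and 2 of 4 WT livers. Gdpd3 had the largest negative difference (-10.51 ± 1.16), and Moxd1, higher in both knockouts, was among the 5 largest (-5.61 ± 1.42). Rad51b, at -8.11 ± 0.47 in LKO livers, changed by -3.42 ± 0.50 in KO livers, a called difference of -4.69 ± 0.69 (adjusted p = 1.82e-05).

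In most marker lists of the cells a liver sample can hold, the share of members called was no larger than among all genes. Of all genes 18.3% were higher and 18.4% lower. All 15 hepatocyte markers were measured, 2 were higher (Cps1, 0.38 ± 0.10, and Ass1, 0.27 ± 0.09) and 0 lower. Their summed linear level ran from 9857 to 12020 in LKO livers and from 9976 to 12470 in LWT livers. With quantile normalization 7 of the 15 were higher, and the call of Ass1 was lost without LKO replicate 5 or LWT replicate 2 (adjusted p = 0.0507 and 0.0605). Of 15 Kupffer cell and macrophage markers 1 was lower, the integrin gene Itgam (-1.66 ± 0.17 at its brightest probe, and without a call at 2 dimmer probes, -0.04 ± 0.12 and 0.13 ± 0.16), with sums of 133 to 210 in LKO and 129 to 264 in LWT livers. Cd5l, the brightest uncalled of them, changed by 0.07 ± 0.30. Of 13 stellate cell and fibroblast markers Lum was higher (0.53 ± 0.17) and Col1a1 lower (-1.24 ± 0.42), and of 13 endothelial markers Pecam1 was lower (-0.28 ± 0.10). Without 1 array the stellate counts ran from 0 to 2 in either direction, and 1 endothelial marker was higher without LWT replicate 1 or LKO replicate 2. These 3 calls each lost significance without at least 1 array, with adjusted p of 0.0620 for Lum without LKO replicate 3, and highest values of 0.0908 for Col1a1 without LWT replicate 5 and 0.0985 for Pecam1 without LKO replicate 2.

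The sums of cholangiocyte, adipocyte and pancreatic acinar markers did not overlap between the genotypes, the acinar sums being higher in LKO livers and the others lower. Cholangiocyte markers summed to 3.09 to 5.42 in LKO livers and 57.1 to 78.4 in LWT livers, and Krt23 was the only 1 of the 11 measured that was called. The median change of these 11 was 0.25, and only 4 of the changes were below 0, so the sums do not speak for the list as a whole. Adipocyte markers summed to 0.655 to 1.39 in LKO livers and 35.3 to 77.2 in LWT livers, from 3 measured genes of 6. Of these Cidec and Cfd fell and the resistin gene Retn had no call (-0.07), while Adipoq, Lep and Plin1 were not detected in any group. Pancreatic acinar markers summed to 16.6 to 19.8 in LKO livers and 9.94 to 15.9 in LWT livers, with Amy2a5 higher (0.55 ± 0.12), 2 uncalled and 3 not detected. Of 12 lymphocyte and neutrophil markers Nkg7 (-0.71 ± 0.09) and Cd79a (-0.51 ± 0.18) were lower, near the 18.4% lower among all genes. Nkg7 was not called as the mean of its probes (adjusted p = 0.0819), nor was Cd79a without any 1 of 4 arrays (up to 0.101, without LWT replicate 3). Of 5 red blood cell markers Alas2 was higher (0.74 ± 0.13). The part of these cell types in the liver changes was not tested.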

How the data were processed

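RNA of whole liver was hybridised on 1-colour Agilent mouse arrays, 1 mouse per array and 34 arrays in all. The authors deposited scanner tables of Cy3 intensity that, per the file headers, come from Agilent Feature Extraction (version 10.10.1.1) with probe positions on mm9, and a log2 value table. That deposited log2 table has equal quantiles in every column, and limma is named for it in the submitters' processing notes.

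Levels were log2 of the processed intensity minus the 75th percentile of each array. Control spots and spots marked as outliers by the scanner software were left out. Probes were kept where all arrays of some group read them well above background, named through RefSeq accessions, symbols or synonyms (32530 of 55681 probes), and each of the 15765 genes was read at its brightest probe. All 34 arrays entered 1 limma fit (limma 3.58.1, R 4.3.3) with lmFit and eBayes, and p-values were adjusted by Benjamini-Hochberg over all genes. The alternatives were normexp background correction (offset 50), quantile normalization, the authors' table, other filters on dim probes, the mean of a gene's probes, keeping outlier spots, fitting only the arrays compared, slide or replicate number as a block, and leaving out each array. In a test on simulated data with 200 changed genes among 15765 for LKO against LWT on fenofibrate, 54.5% of log2 changes of 0.5, 85.1% of 1 and 100.0% of 2 were recovered, and 12 unchanged genes were called. The simulated noise was independent between arrays, and far fewer genes changed than the 5777 called in the data. These shares therefore check the fit and need not hold for the real comparison.

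The text names genes from 15 pathway genes, the 10 largest called rises and falls with a proper symbol, up to 4 called members with the largest change per list, and the 5 largest rises and falls of the other comparisons. The comparison, the gene lists and the named genes were chosen with earlier results of these data known. Replicate numbers are shared between genotypes in the labels. Deviations of same-numbered LKO and LWT livers from their group means correlated at 0.044 to 0.235 on fenofibrate and at 0.12 to 0.288 on vehicle. The main fit took the numbers as names only on both treatments, and pairs entered only in the replicate block. Same-numbered livers shared a slide for numbers 1 and 3 on fenofibrate and for numbers 1, 3 and 4 on vehicle. The number of arrays limits the precision of every value. Some genes that the rule names are not reported here.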

Additional observations from a re-analysis of the deposited data

Results flagged for a closer look

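In 29 of 344 sets of 5 livers (172 genes named in the text, in LKO and in LWT livers on fenofibrate), 1 liver lay far from the nearest of the other 4 relative to the range of the set, by Dixon's criterion at the 95% level. Chance alone is expected to mark about 5% of such sets. Levels below are on the log2 scale. LKO replicate 1 was low for Cpt1b (-2.21, with the nearest other liver at -1.78), Il22ra1 (-1.82, with the nearest other liver at -0.54) and Pdp2 (1.95, with the nearest other liver at 2.55). LKO replicate 2 was low for Slc16a6 (1.50, with the nearest other liver at 1.82). LKO replicate 3 was low for Cd36 (-0.45, with the nearest other liver at -0.06). LKO replicate 3 was high for Cyp4a12b (6.51, with the nearest other liver at 6.07) and Lum (1.70, with the nearest other liver at 1.20). LKO replicate 4 was low for Cyp4f13 (3.73, with the nearest other liver at 3.95). LKO replicate 5 was low for Pklr (1.49, with the nearest other liver at 2.44). LKO replicate 5 was high for Cyp4v3 (6.90, with the nearest other liver at 6.81), Dct (5.21, with the nearest other liver at 4.63) and Gdpd3 (1.44, with the nearest other liver at -3.48). LWT replicate 1 was low for Rufy4 (0.23, with the nearest other liver at 0.71) and Stat5a (0.43, with the nearest other liver at 0.85). LWT replicate 2 was high for Cyp2c55 (0.07, with the nearest other liver at -1.07). LWT replicate 3 was low for Ctse (-1.11, with the nearest other liver at -0.57). LWT replicate 3 was high for Fabp4 (6.02, with the nearest other liver at 3.61) and Slc16a6 (1.62, with the nearest other liver at 1.04). LWT replicate 4 was high for Cyp4a32 (8.46, with the nearest other liver at 8.15). LWT replicate 5 was low for Acad10 (4.65, with the nearest other liver at 4.95), Cyp4a12a (6.98, with the nearest other liver at 7.36), Dct (-0.13, with the nearest other liver at 2.56), Hsd3b5 (0.24, with the nearest other liver at 2.58), Me1 (5.37, with the nearest other liver at 6.19), Mogat1 (1.01, with the nearest other liver at 2.13), Phyh (8.45, with the nearest other liver at 8.72), Prodh (5.89, with the nearest other liver at 6.57) and Shmt2 (4.92, with the nearest other liver at 5.18). LWT replicate 5 was high for Il1rn (0.13, with the nearest other liver at -0.21).

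Of the genes named in the text, 69 had a change between LKO and LWT livers that differed between fenofibrate and vehicle by the limma test of the difference. For 20 of them the text gives the difference. Fenofibrate minus vehicle on the log2 scale, it was negative for Gdpd3 (-8.06), Rad51b (-6.65), Adra2a (-6.19), Ctse (-6.01), Smcp (-5.49), Mogat1 (-4.76), Cd36 (-3.93), Krt23 (-3.67), Pdk4 (-3.38), Ehhadh (-2.61), Vnn1 (-2.21), Cpt1b (-1.69) and Plin2 (-1.43). It was positive for Lpin1 (1.69), Slco1a4 (2.24), Serpina5 (2.45), Ppp1r3c (2.87), Adgrf1 (3.02), Serpina12 (3.97) and Serpina4-ps1 (4.00). Set against the change between KO and WT livers, all on fenofibrate, the LKO change had a called difference for 32 genes named in the text. Those that the text takes up for it had fitted differences below 0 for Gdpd3 (-10.51), Moxd1 (-5.61) and Rad51b (-4.69) and above 0 for Serpina12 (6.32), Trim12a (8.10) and Dct (11.01).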

How the results depend on the processing

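The counts of genes called between LKO and LWT livers on fenofibrate, 2882 higher and 2895 lower, stayed within 1.5 times under every alternative, and no count or gene named by the rule changed direction. With normexp background correction, changes of at least 2-fold numbered 302 higher and 478 lower, against 500 and 718, and the cause was not tested. Quantile normalization gave 3376 higher and 2626 lower, and 3376 and 2687 genes were called in the authors' values. Leaving out 1 array gave 2553 to 2766 higher and 2624 to 2770 lower genes on fenofibrate, and 167 to 279 higher genes on vehicle, against 292. Asking for at least 2-fold in WT raised the share called the other way in LKO to 91.5% of raised and 91.5% of lowered genes. The replicate block gave 2829 higher and 2845 lower genes on fenofibrate, where 3 of 5 LKO livers correlated best with their own number. On vehicle, where each LKO liver did so, the replicate block gave 288 higher and 676 lower genes and changed no call of a named gene. Of the 172 genes named in the text, the replicate block ended the call of Acsm1 on fenofibrate (0.23, adjusted p = 0.0576) and kept the other 171, and it changed none of the differences given in the text. On fenofibrate all 172 kept their call with normexp and 171 with quantile normalization. Calls were lost for Acsm1, Ass1, Dgat2 and Gdpd3 when only the arrays compared were fitted (adjusted p = 0.0505 to 0.0862), for Acsm1, Nudt7, Pecam1 and Trim12a with no filter on dim probes (0.0518 to 0.0771), and for Acsm1, Nudt7, Nkg7 and Cyp2c38 with the mean of the probes of a gene, where Cyp2c38 was at -0.20 (adjusted p = 0.647), against 1.30. Calls were gained for Scd1 and Pdk3 when only the arrays compared were fitted (adjusted p = 0.0113 and 0.0441), and for Igf1 with the mean of the probes of a gene (0.0493). Genes near the lower end of the signal range have only a bound on their change.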

Other observations

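Gdpd3, a lysophospholipase D gene, did not follow genotype or treatment among the LKO and LWT livers. On fenofibrate it read -3.67, -3.60, -4.77, -3.48 and 1.44 in LKO livers and 0.08, 1.02, 1.46, 2.11 and -3.44 in LWT livers. On vehicle it read 0.91, 1.24, 0.95 and 1.34 in LKO livers and -4.22, -4.56, -3.19 and -3.59 in LWT livers. Each liver thus lay either above 0 or below -3 on the log2 scale, with none between. These genes were picked after their values were seen. Over the 18 LKO and LWT arrays the genes most like Gdpd3 by Pearson's r were Mcmbp (r = -0.85), Zfp426 (r = 0.843), the histone genes H3c15 (r = 0.826) and H3c13 (r = 0.805), Ube3a (r = -0.81) and Nsmce4a (r = -0.804). Gdpd3 itself lies on chromosome 7 (probe start 133914520, mm9), as do Mcmbp (135841425), Nsmce4a (137676049) and Ube3a (66561271). Ube3a lies much farther from Gdpd3 than Mcmbp and Nsmce4a do. Of the 10 most similar genes 3 lie on chromosome 7, and of all genes tested 8.32% do. The correlations are descriptions over arrays that share genotype and treatment groups.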
